A study of Mus musculus with 13 samples.

Results

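Mouse embryonic stem cell (ESC) lines that had lost Jmjd2a, Jmjd2b and Jmjd2c were compared with lines that had lost Jmjd2a and Jmjd2c only, to see the state of the cells with Jmjd2b lost as well. The comparison took the 3 samples labelled OHT_2abc and the 3 labelled OHT_2ac, 6 of the 12 samples of the series, and was unpaired. The 2ac lines (cl4, cl5, cl6) carried Jmjd2a(f/f) and Jmjd2c(f/f), and Jmjd2b(f/f) was added to these in the 2abc lines, named cl280.4, cl324.9 or cl324.13. Every line held Rosa26::CreERT2, a Cre recombinase that is active only with a tamoxifen-like drug and is expressed from a ubiquitous locus. Both OHT groups were given 500 nM of 4-hydroxytamoxifen (OHT) for 12 days and were grown for 6 more days before harvest, and the untreated (Control) cultures of the same 6 lines, with the floxed genes intact, were the reference. Both OHT groups thus share the drug, Cre activity and the loss of Jmjd2a and Jmjd2c. All lines were derived from C57Bl/6 mice and were cultured without serum on gelatin, with LIF, the MEK inhibitor PD0325901 and a GSK3 inhibitor. The labels describe the lines as independently established, each sample is 1 line, and the error behind every p-value is the spread among lines.

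The Jmjd2 (Kdm4) enzymes remove methyl groups from lysines 9 and 36 of histone H3, marks of silent chromatin and of transcribed gene bodies. Jmjd2a, Jmjd2b and Jmjd2c (Kdm4a, Kdm4b and Kdm4c) share a catalytic domain and histone-reading domains, and can act on the same marks. ESCs in MEK and GSK3 inhibitors are held in the naive state, in which the ERK pathway is blocked and Wnt signalling through beta-catenin is switched on.

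Total RNA was labelled with Cy3 and measured on 1-colour Agilent arrays. All levels below are log2 signals relative to the 75th percentile of their own array, and all differences are 2abc minus 2ac on that log2 scale. The OHT culture of line cl4 was hybridised on 2 arrays, which correlated at r = 0.9945 and were averaged as 1 sample. Of the 55681 probes, 50.1 to 63.9% lay well above background on each array. The arrays lay on 3 slides, and the slide of the 2abc arrays held cl6 as the only 2ac line (untreated and OHT cultures alike), so for cl4 and cl5 genotype and slide cannot be told apart. Arrays varied within that slide too. For OHT_2abc 63.6, 52.4 and 50.1% of probes lay well above background in cl280.4, cl324.9 and cl324.13. Lyz2, above background on no array, read -7.55, -6.48 and -6.27 in them. At dim probes the difference varied with the 2ac line, and there line and slide cannot be told apart. In the dimmest of 5 equal bands of probe brightness the median difference after OHT was -0.60 against cl4 and -0.73 against cl5, but -0.06 against cl6. In the fourth band it was 0.02, 0.06 and 0.00. Line cl6 stood apart in another way, as its signals of the Y-linked gene Ddx3y were -7.33 untreated and -7.39 after OHT, where the other 5 lines lay between 1.10 and 2.06. All 12 ESC markers, including Pou5f1, Nanog and Esrrb, were above background on every array.

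**Figure D1:**
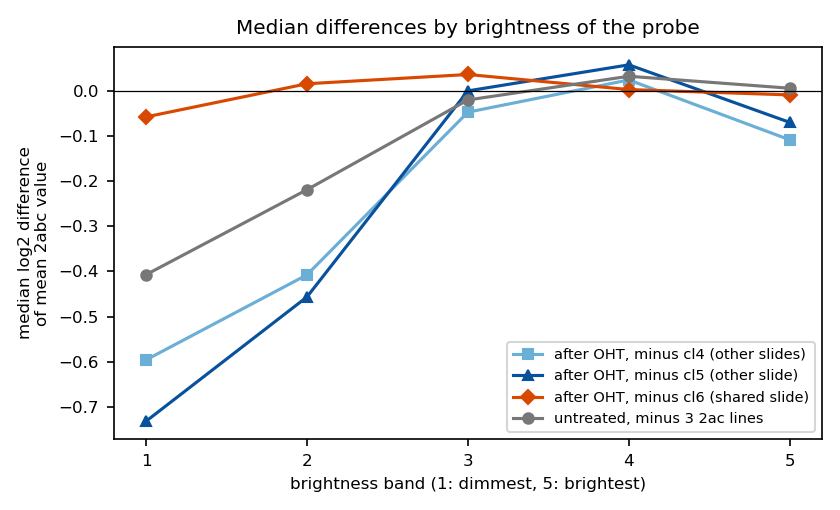
Median log2 difference of the 2abc mean from the 2ac lines (vertical axis) in 5 bands of probe brightness of about 4593 features each (horizontal axis). The 3 coloured lines are differences after OHT from cl4, cl5 and cl6, and grey is the untreated difference from the 3 2ac lines. In the dimmest band the medians were -0.60 (cl4), -0.73 (cl5), -0.06 (cl6) and -0.41 (untreated).

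The gene that sets the genotypes apart was read first. Kdm4b had levels of -0.03, 0.13 and 0.12 in OHT_2abc (in the order cl280.4, cl324.9, cl324.13, kept below), and of 2.20, 2.15 and 2.54 in the OHT_2ac lines cl4, cl5 and cl6. The groups were far apart and no 2abc line came near a 2ac line. The difference was -2.23 (SE 0.19, limma adjusted p = 0.00221), a 4.68-fold lower signal, and -2.47 against cl6 alone (adjusted p = 0.0166). Untreated, the levels were 2.55, 2.54 and 1.80 in 2abc against 2.15, 2.19 and 2.20 in 2ac (0.12, adjusted p = 0.784). Kdm4a, deleted in both, had levels of 1.86, 2.21 and 2.16 in OHT_2abc and 2.01, 2.11 and 1.98 in OHT_2ac (difference 0.04, SE 0.10, adjusted p = 0.756). Kdm4c had -0.58, -0.82 and -1.08 against -0.65, -1.45 and -0.12 (difference -0.09, SE 0.28, adjusted p = 0.829), with the 2ac lines spread more widely than the 2abc lines. Both genes were higher in every untreated culture, Kdm4a between 2.74 and 2.80 and Kdm4c between 2.14 and 2.62. The Kdm4d probe was above background on 0 arrays. Whether these probes lie inside the deleted parts of the genes is unknown, so the residual signal does not measure intact transcript.

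**Figure D2:**
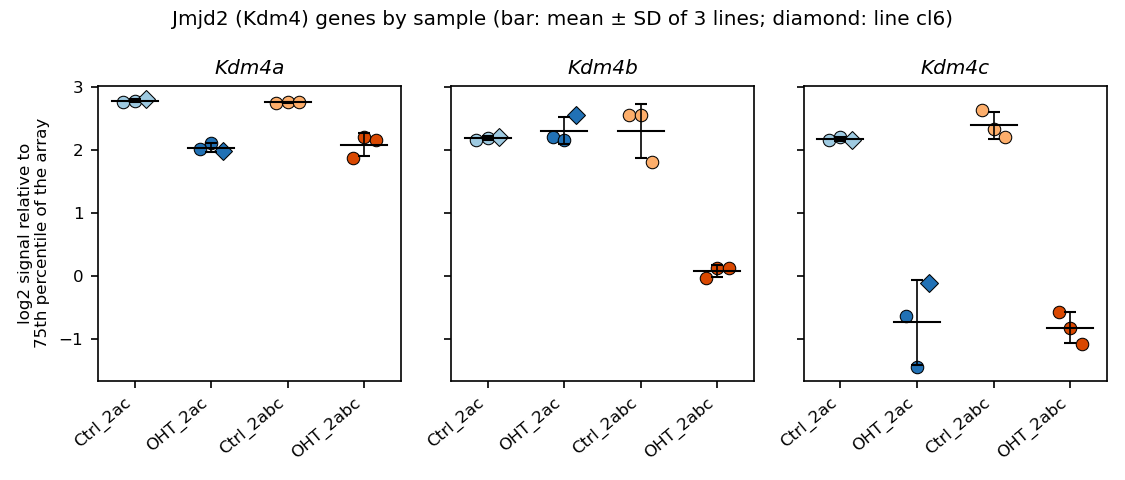
Log2 signal of Kdm4a, Kdm4b and Kdm4c relative to that array's 75th percentile (vertical axis) in each of the 12 samples, by group (horizontal axis). Points are lines, diamonds are line cl6, bars are the mean and SD of 3 lines. Kdm4b is near 0 in OHT_2abc and above 2 in OHT_2ac, while Kdm4a and Kdm4c overlap between the OHT groups.

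Across the array, limma called 3139 of 22967 features after OHT at an adjusted p under 0.05 (13.7%), 1481 higher (6.45%) and 1658 lower (7.22%) in 2abc. Of these, 256 were over 2-fold higher and 310 over 2-fold lower. In the untreated cultures 5 were called (0.0218%), 2 higher (0.00871%) and 3 lower (0.0131%), with 3476 at an unadjusted p under 0.05 against 8045 after OHT. That count turned on the lines included. Without cl6 1104 untreated features were called, among them the same 5, and without any 1 of the other 5 lines 0. With own spreads for treated and untreated samples it was 673. The difference between the OHT effects of the genotypes, tested with the line as a block, gave 0 calls (lowest adjusted p = 0.123, with 2516 features at an unadjusted p under 0.05). On the slide shared with cl6, 1329 features were called (5.79%), 613 higher (2.67%) and 716 lower (3.12%), and the lone line cl6 was there assumed to vary like the 2abc lines. Of the 3139, 592 were also called on that slide. Both comparisons share the OHT_2abc samples and cl6, so their signs are not independent.

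The untreated lines already leaned the same way at many of these features. Of the 3139, 2822 had the same sign untreated and 317 the opposite sign. For 1132 (36.1%) the untreated difference was at least 0.5 of the difference after OHT, and for 1003 (32%) it was under 0.25 of it in size. No feature passed the test of the difference between these 2 differences, and untreated values are therefore given for the leading genes below. Features with a gene symbol were called higher in 1339 of 14661 cases (9.13%) and lower in 778 (5.31%), or 14.4% either way. Those without a symbol, mostly dim, were called higher 142 times and lower 880 times, and their median difference was -0.35 over all 2ac lines and -0.02 against cl6. The share of higher calls turned on the scaling, being 47.2% here and 92.3% with arrays scaled by their median, which moved the median of all features from -0.14 to 0.19. It was 64% with quantile normalisation, 67.4% with cyclic loess and 62.5% in the authors' deposited table.

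**Figure D3:**
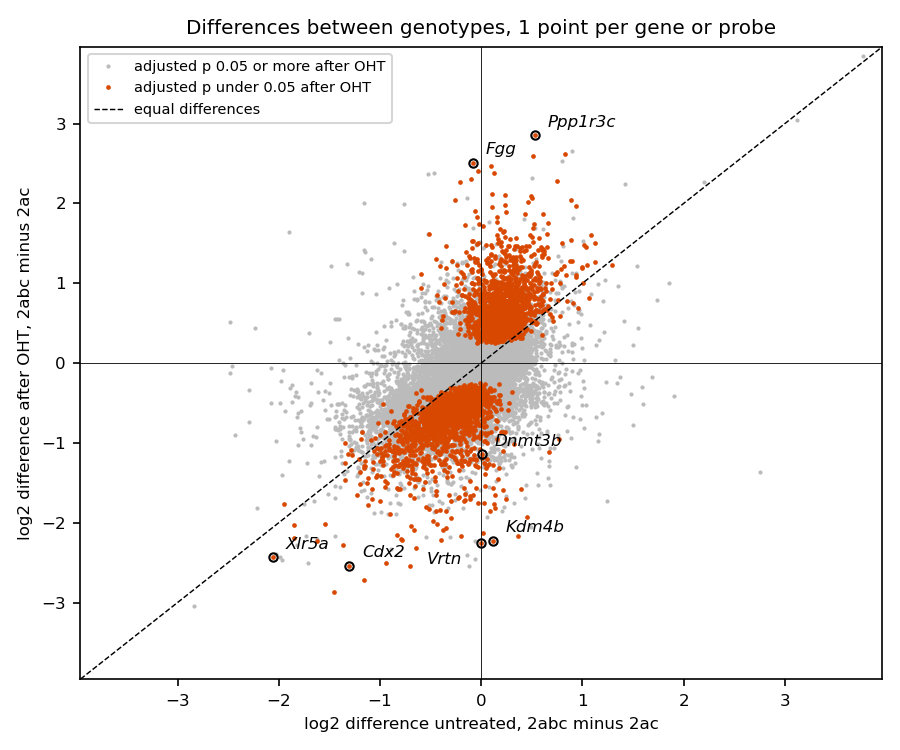
Log2 difference, 2abc minus 2ac, after OHT (vertical axis) against that of the untreated cultures of the same lines (horizontal axis), 1 point for each of 22967 features. Orange points had an adjusted p under 0.05 after OHT, and the dashed line marks equal differences. Kdm4b, Vrtn and Dnmt3b lie near 0 untreated and far below 0 after OHT, and Xlr5a lies close to the dashed line.

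How many features were called depended on which samples were fitted and on how the spread was set. The OHT samples varied more than the untreated ones, with median SDs over features of 0.236 (OHT_2ac) and 0.168 (OHT_2abc) against 0.141 and 0.119 untreated, and the fit used 1 spread for all 4 groups. With each treatment given its own spread 824 features were called, and with the 6 OHT samples alone 0 (lowest adjusted p = 0.0564, with 5305 at an unadjusted p under 0.05). Without line cl6 the count was 8444, without cl280.4 it was 4840, without cl4 491, without cl5 880, without cl324.9 105 and without cl324.13 59. The OHT_2abc lines were not equally alike. After OHT, cl324.9 and cl324.13 correlated at 0.9941 with each other, and cl280.4 at 0.9876 and 0.9887 with them. Line cl280.4 correlated at 0.9896, 0.9832 and 0.9835 with the OHT cultures of cl4, cl5 and cl6, and at 0.9894 with its own untreated culture. Of the 92 called genes examined by name below, 85 were called without cl6, 78 without cl280.4, 37 without cl5, 24 without cl4, 10 without cl324.9, 9 without cl324.13, 51 with the slide as a block and 30 on the slide of cl6 alone.

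Of these 92 genes, 7 lost their call in no other fit than that of the 6 OHT samples alone, where their adjusted p was 0.0564 to 0.0975: Kdm4b, Dnmt3b, Vrtn, Spink1, Eno2, Ddx58 and Sbno1. They are described first. Dnmt3b, a de novo DNA methyltransferase that is high in the post-implantation epiblast, had levels of 3.55, 3.57 and 3.39 in OHT_2abc against 4.37, 4.67 and 4.89 in OHT_2ac. All 2abc lines lay below all 2ac lines, by 1.14 on average (difference -1.14, SE 0.12, adjusted p = 0.00237; -1.39 against cl6). The genotypes did not stand apart untreated (0.01, adjusted p = 0.97), and 2 further Dnmt3b probes gave -1.18 and -1.27 (adjusted p = 0.00233 for each). Vrtn, which encodes vertnin, a DNA-binding protein linked to vertebra number, was at -3.16, -3.93 and -3.71 in OHT_2abc against -1.19, -1.68 and -1.16 in OHT_2ac. Its difference was -2.26 (SE 0.25, adjusted p = 0.00267), against -0.01 untreated and -2.45 against cl6. Among the genes named here it had the smallest p for the difference between the OHT effects of the genotypes (5.34e-06 before adjustment), which did not pass after adjustment over all features.

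Spink1, a secreted inhibitor of trypsin-like proteases, was at -3.57, -3.92 and -3.90 in OHT_2abc against -1.53, -1.61 and -1.30 in OHT_2ac. The 2 sets of lines lay over 2-fold apart with a narrow spread inside each (difference -2.32, SE 0.20, adjusted p = 0.00221; untreated -0.64; -2.50 against cl6). Eno2, the enolase of neurons, went the other way, with -0.93, -0.76 and -0.11 in OHT_2abc against -2.64, -2.99 and -3.02 in OHT_2ac (difference 2.28, SE 0.23, adjusted p = 0.00221; untreated 0.75; 2.42 against cl6). Ddx58 encodes RIG-I, a cytoplasmic sensor of double-stranded RNA. It had 2.56, 2.44 and 2.31 in OHT_2abc against 3.66, 3.56 and 3.71 in OHT_2ac, and was lower in each 2abc line (difference -1.20, SE 0.14, adjusted p = 0.00367; untreated -0.11; -1.27 against cl6). A second Ddx58 probe gave -0.998 (adjusted p = 0.0232). Sbno1 was one of 2 genes with a symbol that were also called, in the same direction, untreated, with -1.09 after OHT and -1.29 untreated (adjusted p = 0.0446), and a second Sbno1 probe was called in the opposite direction after OHT (0.38, adjusted p = 0.0305). The other was Klhl42, an adaptor of a ubiquitin ligase, with 0.75 after OHT (adjusted p = 0.00507) and 0.91 untreated (adjusted p = 0.0384).

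The 10 genes with the largest differences in each direction, among called genes whose 2abc and 2ac ranges after OHT did not overlap, were next examined. Ranges did not overlap for 30.8% of all genes with a symbol, for 29.4% of all features, and for 33.5% of all features untreated. Among the higher genes, Ppp1r3c, which targets a phosphatase to glycogen, led with -3.15, -2.67 and -1.56 in OHT_2abc against -4.87, -6.06 and -5.01 in OHT_2ac (difference 2.85, SE 0.41, adjusted p = 0.00672; untreated 0.53). It was above background on 1 of the 4 OHT_2ac arrays. No OHT_2ac array measured Pdgfrb, Fgf21, Tnfrsf1b or 1700029J07Rik above background, so these have only lower bounds, set against the lowest signal well above background on those arrays or the probe's own signal where higher. Tnfrsf1b, a receptor for tumour necrosis factor, was at least 2.67-fold higher (adjusted p = 0.00785; untreated 0.12). Pdgfrb, which encodes a PDGF receptor, was at least 2.16-fold higher and measured on 2 of 3 OHT_2abc arrays (adjusted p = 0.0226; untreated 0.83, with ranges already separate). Fgf21, a hormone induced by metabolic stress, was at least 2.09-fold higher (adjusted p = 0.00459; untreated 0.10). For 1700029J07Rik the bound was 1.69-fold. It was above background on all 3 OHT_2abc arrays and on 0 arrays of the other groups, so it entered the test only through the group in which it was high, and its p supports nothing.

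Fgg, the gamma chain of fibrinogen, had 0.27, -0.17 and -0.02 in OHT_2abc against -1.37, -1.47 and -4.61 in OHT_2ac. All 2abc lines were higher, and the size of its difference (2.51, SE 0.70, adjusted p = 0.0423; untreated -0.08) rested largely on cl6, from which 2abc differed by 4.63. The keratin gene Krt20 was at -1.80, -2.51 and -2.48 against -2.72, -5.47 and -5.40, and here line cl4 lay close to the 2abc lines (difference 2.27, adjusted p = 0.0391; untreated -0.21). It was above background on 2 of 4 OHT_2ac arrays. The other higher genes were Cntd1, a factor of meiotic crossing over (2.59), the zinc-finger gene Zfr2 (2.30, adjusted p = 0.00846) and Eno2, given above. Their untreated differences were 0.52, -0.10 and 0.75. Cntd1 was above background on 3 of 3 OHT_2abc arrays but on 1 array of each other group, so it too was tested only because it was high in OHT_2abc, and its difference is set against signals mostly near background.

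Among the lower genes were a pair of homeobox genes of the posterior embryo. Evx1 was at -3.25, -4.96 and -4.89 in OHT_2abc against -1.58, -2.27 and -0.64 in OHT_2ac (difference -2.87, SE 0.60, adjusted p = 0.0173), and Cdx2 at -4.44, -5.52 and -5.40 against -2.61, -2.70 and -2.44 (difference -2.54, SE 0.44, adjusted p = 0.010). Line cl280.4 was the highest 2abc line for both, and each was above background on 1 of 3 OHT_2abc arrays. Both passed the filter only through OHT_2ac, the group in which they were high, so their p-values support nothing. Untreated, Evx1 differed by -1.45 and Cdx2 by -1.30, without a call. Id3, an inhibitor of helix-loop-helix factors and a target of BMP signals, was at 1.02, -0.33 and -0.78 against 2.80, 2.26 and 1.46 (difference -2.20, SE 0.44, adjusted p = 0.0147; untreated -0.79). The X-linked gene Xlr5a was -2.43 (adjusted p = 0.0411) after OHT and -2.06 untreated. It had -2.75, -1.29 and 0.29 in lines cl4, cl5 and cl6, which did not cluster. The urate oxidase gene Uox (-2.50), the guanylate-binding protein gene Gbp5 (-2.28) and the rod transducin gene Gnat1 (-2.22) were the others beside Kdm4b, Spink1 and Vrtn, with adjusted p of 0.0162, 0.0492 and 0.0352. All 3 were above background on 1 of 3 OHT_2abc arrays. Untreated, Uox differed by -0.94 and Gbp5 by -1.37, both with separate ranges, and Gnat1 by -0.40. Gbp5 differed by -0.84 against cl6 and Gnat1 by -3.70. Of the 20 genes, 19 were called without cl6, 12 on the slide of cl6 alone, and 5 each without cl324.9 and without cl324.13.

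**Figure D4:**
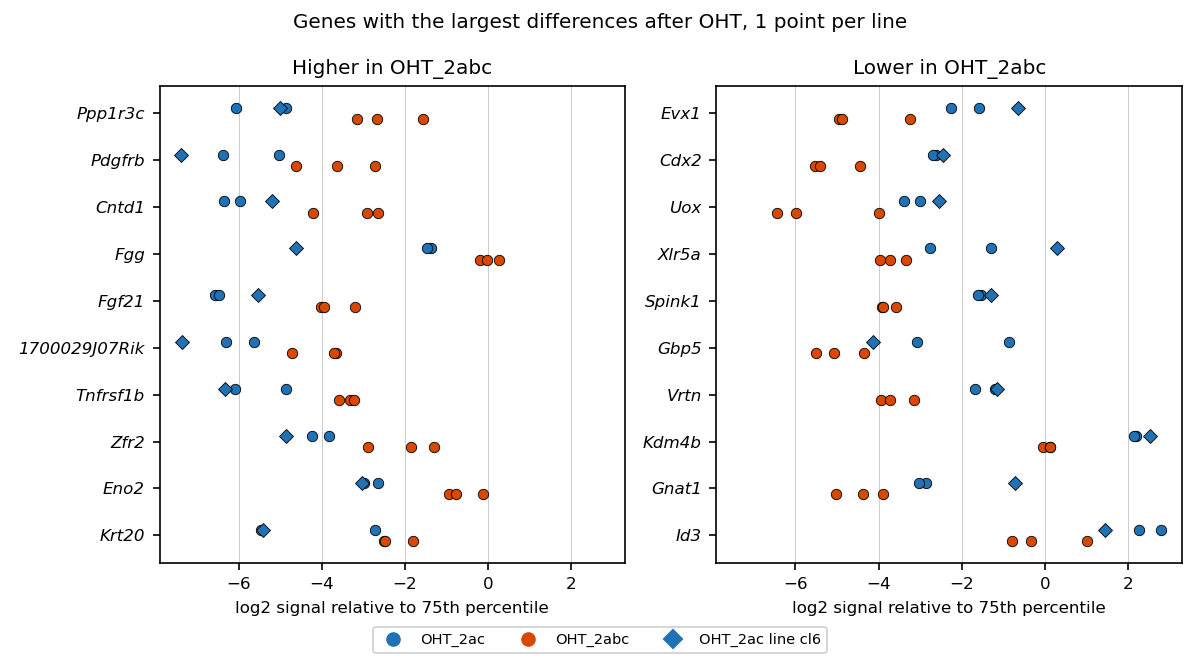
Log2 signal relative to that array's 75th percentile (horizontal axis) after OHT for the 10 genes with the largest differences in each direction. Points are single lines, blue OHT_2ac with cl6 as a diamond and orange OHT_2abc. The ranges of the groups do not overlap for any of the 20, as the rule for choosing them required, and the 2ac lines are widely spread for Fgg, Krt20, Gbp5 and Xlr5a.

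Target genes of ERK and Wnt signals, the pathways that both inhibitors of the medium act on, held more lower than higher calls in the 2abc lines. Of 22 tested members 8 were called lower and 1 higher after OHT, beside 5.31% and 9.13% of all genes with a symbol. The median difference was -0.74, against -0.03 for all genes with a symbol, -0.25 for the list untreated and -0.34 against cl6. It was -0.22 over members above background on every array, -0.21 in the authors' deposited table and -0.41 with arrays scaled by their median, where 3 members were lower. Cdx2 is given above, and it and T, below, were tested only through the OHT_2ac arrays, so their lower calls support nothing. Over members above background on every array 6 were called lower and 1 higher. Myc, the growth-promoting transcription factor, was at -2.42, -3.34 and -3.82 in OHT_2abc against -0.87, -1.41 and -1.35 in OHT_2ac, with all 2abc lines lower (difference -1.98, SE 0.33, adjusted p = 0.00897; untreated -0.48; -1.84 against cl6, adjusted p = 0.12). Sp5, a zinc-finger factor and direct Wnt target, was at 1.34, 0.61 and 0.32 against 2.10, 1.85 and 2.21 (difference -1.30, SE 0.24, adjusted p = 0.0114; untreated -0.58). Notum, a secreted enzyme that inactivates Wnt ligands, was at 3.01, 2.74 and 2.71 against 3.47, 3.55 and 4.07 (difference -0.88, SE 0.15, adjusted p = 0.010; untreated -0.32), and it was the 1 lower member also called on the slide of cl6 (-1.26, adjusted p = 0.0164).

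The brachyury gene T, a mesoderm regulator, was at -3.49, -4.97 and -5.95 against -2.26, -3.06 and -3.53 (difference -1.85, SE 0.55, adjusted p = 0.0496; untreated 0.09), above background on 1 of 3 OHT_2abc arrays. The remaining lower members were the ERK phosphatase genes Dusp4 (-0.86) and Dusp6 (-0.79) and the ETS factor gene Etv4 (-0.73). Dusp6 differed by as much untreated (-0.78), Dusp4 by -0.27 and Etv4 by 0.16. The higher member was Nkd1, a feedback inhibitor of Wnt signals (0.67, adjusted p = 0.0236; untreated 0.25). Among members without a call were the Wnt feedback gene Axin2 (-0.91), the Wnt transcription factor gene Lef1 (-1.12), the ERK inhibitor gene Spry4 (-1.65) and the early response gene Fos (0.37). Without cl6, 11 members were lower and 2 higher, without cl4 1 and 0, without cl5 4 and 0, and without either cl324 line 0 and 0. With the slide as a block 4 were lower and 0 higher, and with own spreads 3 and 0.

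Because beta-catenin acts through TCF factors, the promoters of the lower members were searched for the TCF core CTTTGA on both strands, in the 250 bases before the annotated start (RefSeq, GRCm38.p6). Of the 8 genes 4 matched a promoter in the table, and 2 of the 4, Sp5 and T, held the motif, as did 13.8% of 32851 mouse promoter windows of that length. They are shown because both are known direct Wnt targets among the members called lower. T was tested only through OHT_2ac, the group in which it was high, so its call supports nothing. Sp5 is at chr2:70474673-70474922 (plus strand) and T at chr17:8434173-8434422 (plus strand), with matches in capitals.
Sp5: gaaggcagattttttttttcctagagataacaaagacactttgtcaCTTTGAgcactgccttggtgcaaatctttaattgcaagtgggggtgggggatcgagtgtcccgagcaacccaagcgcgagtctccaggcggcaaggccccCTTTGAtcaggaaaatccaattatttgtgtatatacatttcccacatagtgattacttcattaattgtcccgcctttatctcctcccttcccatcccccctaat
T: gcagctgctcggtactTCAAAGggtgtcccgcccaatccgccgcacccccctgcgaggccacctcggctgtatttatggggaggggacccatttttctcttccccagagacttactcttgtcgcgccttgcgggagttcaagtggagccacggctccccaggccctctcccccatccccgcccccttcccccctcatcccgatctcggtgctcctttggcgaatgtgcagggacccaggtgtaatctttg
The Sp5 window held the motif 2 times and the T window once, on the opposite strand. The windows of Cdx2 and Dusp6 did not hold these letters.

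Genes of the ATF4 stress response, which is switched on by amino acid shortage and by unfolded proteins, lay the other way. Of 19 tested members 5 were called higher and 0 lower, beside 9.13% and 5.31% of all genes with a symbol, and the median was 0.43, against 0.04 untreated and 0.31 against cl6. Ddit3, which encodes the stress factor CHOP, was at 1.04, 1.70 and 1.87 in OHT_2abc against -0.37, -0.07 and 0.25 in OHT_2ac. Every 2abc line was above every 2ac line (difference 1.60, SE 0.25, adjusted p = 0.00741; untreated 0.48; 1.29 against cl6, adjusted p = 0.0813). Vldlr, a lipoprotein receptor, was at -0.21, 0.46 and 0.61 against -1.09, -0.67 and -1.16 (difference 1.26, SE 0.21, adjusted p = 0.00918; untreated 0.07). Chac1, which breaks down glutathione, was at 3.65, 4.51 and 4.54 against 2.64, 3.27 and 3.44 (difference 1.12, SE 0.28, adjusted p = 0.0317; untreated 0.14). Line cl280.4 was the lowest 2abc line in each of these 3 genes.

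Trib3, a pseudokinase that restrains ATF4 (0.67, adjusted p = 0.0438), and the transcription factor gene Atf3 (0.64, adjusted p = 0.0341) were the other calls, with untreated differences of -0.11 and -0.27. Atf4 itself (0.24, adjusted p = 0.143) and the asparagine synthetase gene Asns (0.12, adjusted p = 0.486) were not called, nor were the serine synthesis genes Psat1 (-0.06) and Psph (0.01). Called members were 6 without cl6, 9 without cl280.4, 1 without cl4, 2 without cl5, 0 without either cl324 line and 0 on the slide of cl6 alone, none of them lower. With own spreads 2 were called, with the slide as a block 2, and with arrays scaled by their median 10.

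The composite C/EBP-ATF element, at which ATF4 and CHOP are known to bind, was searched for as TGATGNAA on both strands in the same windows. All 5 called members matched, with 6 windows since Vldlr has 2 annotated starts, and 3 of the 6 held the element, as did 3.45% of all windows. The 3 are shown as those of the called members with a match, in capitals: Chac1 at chr2:119350992-119351241 (plus strand), Atf3 at chr1:191183334-191183583 (minus strand) and Vldlr at chr19:27216770-27217019 (plus strand).
Chac1: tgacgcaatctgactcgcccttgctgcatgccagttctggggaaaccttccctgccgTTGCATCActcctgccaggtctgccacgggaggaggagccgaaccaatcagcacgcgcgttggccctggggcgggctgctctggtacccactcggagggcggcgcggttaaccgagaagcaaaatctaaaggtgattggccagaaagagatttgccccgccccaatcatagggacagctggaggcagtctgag
Atf3: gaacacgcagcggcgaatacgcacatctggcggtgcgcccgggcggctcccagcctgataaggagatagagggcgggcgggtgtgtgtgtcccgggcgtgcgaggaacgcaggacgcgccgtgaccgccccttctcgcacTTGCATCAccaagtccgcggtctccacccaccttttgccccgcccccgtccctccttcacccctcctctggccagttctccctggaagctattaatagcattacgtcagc
Vldlr: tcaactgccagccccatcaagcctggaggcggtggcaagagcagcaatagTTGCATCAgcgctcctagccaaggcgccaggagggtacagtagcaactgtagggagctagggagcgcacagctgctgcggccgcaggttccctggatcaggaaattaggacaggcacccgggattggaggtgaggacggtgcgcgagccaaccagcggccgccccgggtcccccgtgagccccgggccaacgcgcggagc
In each of the 3 the element reads on the opposite strand of the gene. The windows of Ddit3 and Trib3 and the other Vldlr window did not hold these letters.

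**Figure D5:**
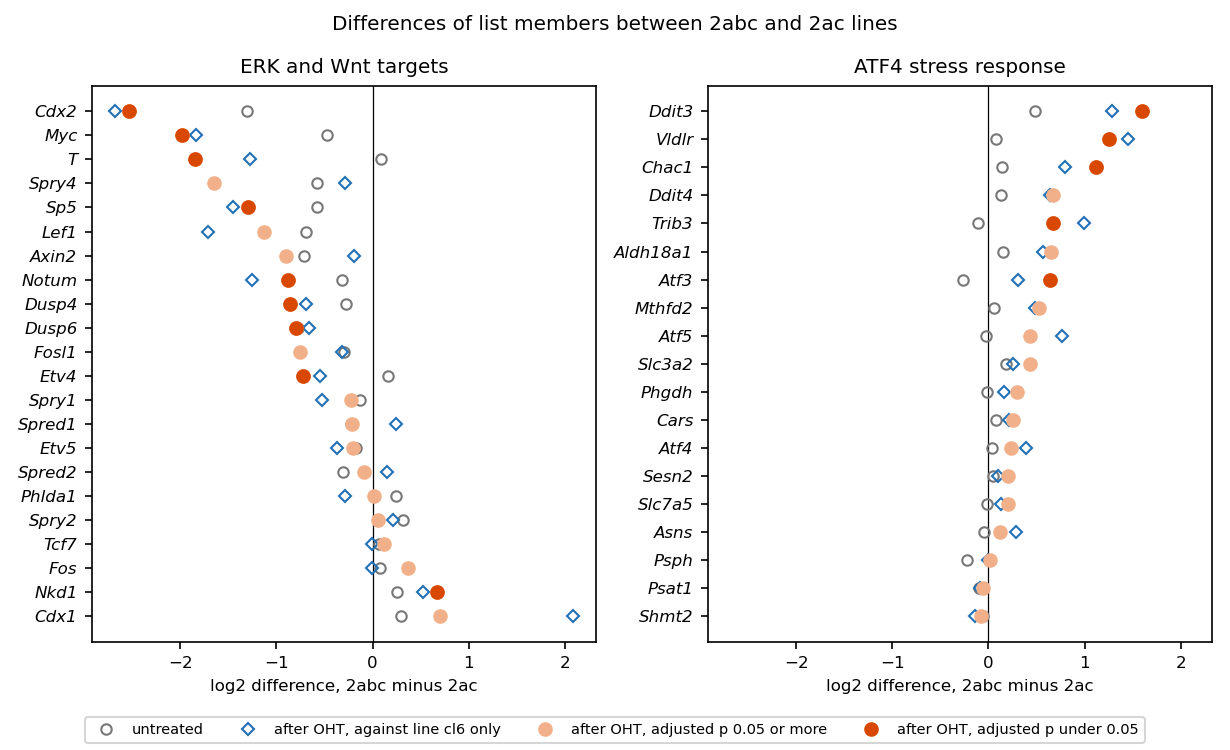
Log2 difference, 2abc minus 2ac (horizontal axis), for each tested member of the ERK and Wnt target list (left) and the ATF4 stress list (right). Filled circles are after OHT, dark where the adjusted p was under 0.05, open circles are untreated, and open diamonds are after OHT against line cl6 only. The called members are 8 lower and 1 higher on the left and 5 higher on the right.

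Of 12 core pluripotency genes 0 were called in either direction (by limma on all 12 samples, with 4 at an unadjusted p under 0.05; 2 were lower in the authors' deposited table, and 1 higher and 3 lower without cl6, and 2 lower without cl280.4). Their median was -0.26, and 0.07 with arrays scaled by their median. Pou5f1 had levels of 5.32, 5.41 and 5.53 in OHT_2abc against 5.75, 5.19 and 5.42 in OHT_2ac, Nanog 4.86, 4.87 and 4.81 against 4.65, 4.60 and 5.01, and Sox2 3.77, 3.91 and 3.98 against 3.64, 3.93 and 4.29. The groups overlapped for each of these 3 genes. The largest core difference was that of Dppa2 (-0.98, SE 0.33, adjusted p = 0.0715), and a second probe of Dppa4 passed the test (-0.62, adjusted p = 0.012). Of 22 naive genes 3 were called, a share near the 14.4% of all genes with a symbol. Higher was the junction protein gene Jam2, at 5.87, 5.83 and 5.83 against 5.20, 5.08 and 4.74 (0.84, SE 0.11, adjusted p = 0.00514; 1.10 against cl6, adjusted p = 0.0121). A second Jam2 probe gave 0.29 (adjusted p = 0.162). The X-linked repressor gene Nr0b1 (-0.62, adjusted p = 0.0492, ranges overlapping) and the threonine dehydrogenase gene Tdh (-0.26, adjusted p = 0.0417) were called lower. Tdh changed sign with arrays scaled by their median (0.07, adjusted p = 0.795). Klf2 (0.01), Klf4 (0.17), Tbx3 (0.04) and Tfcp2l1 (0.05), factors of the naive state, were not called.

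Genes of the formative and primed epiblast, which naive cells switch on when they leave that state, were called lower in 5 of 20 cases and higher in 0, beside 5.31% and 9.13% of all genes with a symbol, with a median of -0.42 (untreated 0.04, against cl6 -0.39). Besides Dnmt3b these were its cofactor Dnmt3l (-1.11, SE 0.31, adjusted p = 0.0432; untreated 0.67), the X-linked Sox3 (-1.25, adjusted p = 0.0376, ranges overlapping), the growth factor gene Fgf8 (-0.63, adjusted p = 0.0259) and Etv4. Dnmt3l had 2.72, 2.60 and 2.40 in OHT_2abc against 3.75, 2.92 and 4.39 in OHT_2ac, so all 2abc lines were lower but cl5 was close to them. A second Fgf8 probe gave 0.10. Wnt8a (-0.36), Otx2 (-0.22) and Pou3f1 (-0.38) were not called. Dnmt3b and Dnmt3l were also the 2 lower calls among 10 genes of DNA methylation, in which 0 were higher. With arrays scaled by their median the epiblast list had 2 higher and 1 lower calls and a median of -0.09. Lower calls were 1 with own spreads, 1 each without cl4, cl324.9 or cl324.13, 2 without cl5, 4 without cl6 and 6 without cl280.4.

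In the Nodal and BMP pathway, 3 of 19 members were lower and 1 higher, beside 5.31% and 9.13% of all genes with a symbol. Lower calls were 1 without cl4, 2 without cl5, 3 without cl6, 6 without cl280.4, 1 without cl324.9 and 0 without cl324.13. Bmp4, the ligand, was at -0.44, -0.83 and -0.71 in OHT_2abc against 1.43, 0.77 and 0.87 in OHT_2ac, with a gap of over 1 between the nearest lines (difference -1.69, SE 0.21, adjusted p = 0.00408; untreated -0.23; -1.54 against cl6, adjusted p = 0.0324). The activin receptor gene Acvr1b was higher (0.94, SE 0.16, adjusted p = 0.00954; untreated 0.47). Of the downstream genes, Id3 was lower as given above and so was Smad7, an inhibitor of the pathway (-0.78, adjusted p = 0.00898; untreated -0.69). Nodal itself (0.05) and its inhibitors Lefty1 (-1.08, adjusted p = 0.156) and Lefty2 (-1.30, adjusted p = 0.0861) were not called.

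The lists of other lineages gave scattered calls, beside 9.13% of all genes with a symbol called higher and 5.31% lower. Of 13 genes of primitive streak and mesoderm 4 were lower (Evx1, Bmp4, Fgf8 and T) and 1 higher (Pdgfrb). Evx1 and T passed the filter only through OHT_2ac, the group in which they were high, so their calls support nothing. Of 16 endoderm genes 2 were higher and 0 lower, the basement membrane laminins Lama1 (3.69, 3.63 and 3.59 against 3.00, 2.89 and 2.75; difference 0.76, SE 0.11, adjusted p = 0.00672; untreated 0.10) and Lamb1 (0.47, adjusted p = 0.0229; untreated 0.24). Of 15 neural genes Nes (0.63, adjusted p = 0.026; untreated 0.04) and Sox1 (1.02, adjusted p = 0.0498, ranges overlapping) were higher and the neuronal tubulin gene Tubb3 lower (-1.02, adjusted p = 0.0101; untreated -0.51), and a second Sox1 probe gave -0.36. Of 14 trophectoderm genes Cdx2 was the 1 call, and it too passed the filter only through OHT_2ac. The endoderm count turned on the fit. It was 5 higher with quantile normalisation, with cyclic loess and in the authors' deposited table, and 7 with arrays scaled by their median, with 0 lower in each. It was 1 higher with own spreads, with the slide as a block, without cl4 and without cl5, and 0 without either cl324 line. Of 15 genes of the 2-cell-like state limma called 0 over all 12 samples, with an unadjusted p under 0.05 for 1, but 2 lower without cl280.4, 1 lower without cl6 and 1 lower in the authors' deposited table.

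Hox genes, which pattern the body axis and are kept silent in ESCs by Polycomb complexes, were called higher in 5 of 18 tested cases and lower in 0, beside 9.13% and 5.31% of all genes with a symbol, with a median of 0.60 (untreated 0.07, against cl6 0.89). Hoxc4 was at 0.76, 0.53 and 0.71 in OHT_2abc against -0.05, -0.07 and -0.90 in OHT_2ac (difference 1.01, SE 0.20, adjusted p = 0.0158; 1.57 against cl6, adjusted p = 0.0121). Hoxb13 was at 0.10, 0.06 and 0.10 against -1.01, -0.97 and -1.63 (difference 1.29, SE 0.25, adjusted p = 0.0139; untreated 0.41). In both, line cl6 was the lowest. Hoxd8 (1.17, adjusted p = 0.023), Hoxb4 (1.48, adjusted p = 0.0228) and Hoxd4 (1.62, adjusted p = 0.0304, above background on 1 of 4 OHT_2ac arrays) were the others. Untreated, Hoxb4 already differed by 1.01, Hoxd4 by 0.65 and Hoxc4 by 0.37, while Hoxd8 differed by 0.00. The 5 lie in all but the Hoxa cluster, of which 5 members were tested. The count was 5 without cl6, 2 without cl4, 2 without cl5, 0 without either cl324 line and 3 on the slide of cl6 alone. It was 1 with own spreads, 2 without the filter on dim probes, 10 with quantile normalisation and 12 with arrays scaled by their median. The 18 tested genes were those of 36 listed that passed the filter. The list median turned on the processing too, at 0.22 without the filter and 0.31 with normexp background correction. It was 0.89 with quantile normalisation and 0.92 with arrays scaled by their median. Of 15 Polycomb genes, Ezh1 (0.59, adjusted p = 0.0166), Pcgf1 (0.47) and Phc1 (0.44) were higher and Pcgf6 lower (-0.38), beside the same 9.13% and 5.31%. Higher Polycomb calls were 3 without cl6 and 2 without cl280.4, but 0 without cl4, cl5, cl324.9 or cl324.13. They were also 0 with own spreads and without the filter on dim probes, and 1 with the slide as a block.

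Chromatin genes related to the Jmjd2 enzymes gave few calls, beside 9.13% of all genes with a symbol called higher and 5.31% lower. Of 11 other demethylases of H3K9 and H3K36 the 1 call was Phf2, a demethylase (0.46, adjusted p = 0.046). Of 12 genes of H3K9 methylation the 1 call was Cbx1, which encodes the heterochromatin protein HP1 beta (-1.50, -2.07 and -2.09 against -1.35, -1.39 and -1.25; difference -0.55, SE 0.15, adjusted p = 0.0356). Of 12 genes of H3K36 methylation limma called 0 over all 12 samples, with an unadjusted p under 0.05 for 3, but 2 higher and 1 lower without cl6, 1 higher without cl280.4, 1 higher with arrays scaled by their median, and 1 lower both on the slide of cl6 and in the authors' deposited table. Of 15 genes of retroelement silencing Mphosph8, which binds methylated H3K9, was higher (0.40, adjusted p = 0.0147). The X-linked Atrx (-0.73, adjusted p = 0.11) was not called, but further Atrx probes were lower (-1.05, adjusted p = 0.0478, and -0.954, adjusted p = 0.0491). Its level after OHT was 1.30 in cl6, against -0.03 in cl4 and -0.01 in cl5.

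Among metabolic and growth genes, 4 of 22 mitosis genes were higher by less than 1.5-fold and 0 lower, beside 9.13% and 5.31% of all genes with a symbol: Tpx2 (0.44), Bub1b (0.33), Top2a (0.31) and Anln (0.27), with untreated differences of 0.15, 0.16, 0.04 and 0.12. A second Tpx2 probe gave -0.14. The count was 0 without cl5, without cl324.9, without cl324.13 and on the slide of cl6, and 1 without cl4, with the slide as a block and with own spreads. Of 28 genes of glycolysis and hypoxia 3 were higher, a share near the 9.13% of all genes: the hexokinase gene Hk1 (5.26, 4.94 and 5.12 against 4.51, 4.51 and 3.98; difference 0.77, SE 0.16, adjusted p = 0.0153; untreated 0.15), the growth factor gene Vegfa (0.86, adjusted p = 0.0226) and Ero1a (0.36, adjusted p = 0.0467). Of 27 p53 targets the ribonucleotide reductase gene Rrm2b (0.98), Btg2 (0.53) and the cell-cycle inhibitor gene Cdkn1a (0.51) were higher and Aen lower (-0.39). That share is near the 14.4% of all genes with a symbol called either way. Btg2 differed nearly as much untreated (0.48). Second probes of Cdkn1a (0.22, adjusted p = 0.365) and Aen (-0.36, adjusted p = 0.062) were not called. Of 20 amino acid transporters Slc43a1 (0.58) and Slc43a2 (0.37) were higher, and Slc6a15 (-1.85), Slc7a3 (-0.92) and Slc7a7 (-0.88) lower, beside the same 9.13% and 5.31%.

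Of 25 germline genes 3 were lower and 0 higher: Hormad1, a protein of the meiotic chromosome axis (1.68, 1.28 and 1.09 against 2.22, 2.20 and 3.22; difference -1.20, SE 0.26, adjusted p = 0.0193; untreated -0.26), Tdrd12 (-0.70) and the X-linked Taf7l (-0.57). Calls of this list and the next ones stand beside 5.31% of all genes with a symbol called lower and 9.13% higher. Of 10 interferon genes Stat2 was higher (0.60, adjusted p = 0.017) and Ddx58 lower. Of 26 imprinted, 27 DNA replication, 22 sterol synthesis, 22 ribosomal protein and 5 Pramel genes limma called 0 over all 12 samples, with an unadjusted p under 0.05 for 6, 10, 3, 0 and 0 of them. Other fits did call members: without cl6 3 higher and 2 lower imprinted, 2 lower replication, 3 higher sterol, 6 lower ribosomal and 1 lower Pramel genes, without cl280.4 4 higher imprinted, 4 lower replication and 1 higher sterol genes, with the slide as a block 3 lower imprinted, 2 lower sterol and 1 higher Pramel genes, and 2 higher and 1 lower imprinted, 5 lower replication and 1 higher sterol genes in the authors' deposited table. Of 15 reference genes B2m was higher (0.73) and Tfrc lower (-0.56).

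Markers of other cell types were read beside these lists. The summed linear level of the 12 ESC markers, each relative to the 75th percentile, was 918.7 to 949.5 in OHT_2abc against 1046 to 1119 in OHT_2ac, and L1td1 (-0.62, adjusted p = 0.00918) and Tdh were called lower. This turned on the scaling, as their median log2 difference was -0.21 here and 0.11 with arrays scaled by their median, where 0 were called lower. The fibroblast markers summed to 149 to 181 against 144 to 164, with Fn1 (0.39) and Loxl1 (0.90) higher and Vim lower (-0.63). That linear sum was mostly Fn1, at 6.93 to 7.18 in OHT_2abc and 6.49 to 6.81 in OHT_2ac, and Vim. The median log2 difference of the 10 tested fibroblast markers was -0.20, so the sum does not show a rise of the list. Of these 16 markers, 9 in each OHT group were above background on every array, and 5 on no OHT_2abc array and 4 on no OHT_2ac array, among them Dcn, Postn and Prrx1. Blood and endothelial markers summed to 13.2 to 17.1 against 16.5 to 20.4, with Cd34 (-2.13, above background on 1 of 3 OHT_2abc arrays) and Itgam (-0.41) lower. Of these 17 markers, 9 in each group were above background on every array and 4 on none, among the latter Lyz2, Hba-x and Emcn. In bulk RNA, fewer cells of a kind and less RNA per cell cannot be told apart, and the part of these markers in the lists above was not tested.

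The X chromosome differed mainly through line cl6. Over its 535 genes the median difference after OHT was -0.35, with 47 lower and 3 higher calls, and -0.84 against cl6. Relative to the mean of the 12 samples the X median was -0.04, -0.13 and -0.14 in the OHT_2abc lines and -0.04, -0.03 and 0.81 in cl4, cl5 and cl6. The single high sample was the OHT culture of cl6, whose untreated culture was at 0.09. Without cl6 the median difference was -0.05. The X-linked genes named above, Atrx, Nr0b1, Sox3, Slc7a3, Taf7l and Xlr5a, and also Ddx3x (-0.42, adjusted p = 0.0376, untreated -0.29), all lower in 2abc, are to be read beside that value. The part of the X level in them was not tested. Chromosome 3 varied by sample too. Relative to the same mean its median was -0.07, 0.25 and 0.21 in the OHT_2abc lines. It was 0.07, 0.16 and 0.13 in cl4, cl5 and cl6 after OHT, and -0.19 to -0.06 untreated. Its median difference after OHT was 0.00, which does not show this spread. Fgg, Gbp5, Hormad1 and Nes are among the named genes on chromosome 3, and its part in them was not tested. Without genes of chromosomes 3, X and Y, 3072 of 21761 features were called.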

How the data were processed

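Total RNA of 12 ESC cultures was measured on 13 one-colour Agilent arrays, and the deposited scanner files hold the Cy3 intensity of each spot, which per the file headers was background-subtracted by Feature Extraction (version 11.0.1.1). The authors' deposited table holds log2 values, and the submitters' processing notes name limma without a version. Flagged outlier spots were dropped, log2 processed intensity was centred on each array's 75th percentile, and spots of a probe were averaged. A probe was kept if all arrays of any of the 4 groups measured it well above background, and the brightest probe stood for its gene, which left 22967 features, 12 of them missing a value in some sample. Names came from the array annotation, updated through RefSeq.

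The OHT contrast and the untreated contrast were fitted with limma 3.58.1 (R 4.3.3) as 4 group means over all 12 samples. The difference between the OHT effects was fitted with the line as a block, since treated and untreated cultures share lines. Same-line deviations correlated between -0.021 and 0.50. P-values were adjusted by the Benjamini-Hochberg method, and an adjusted p under 0.05 was a call. Simulated data had independent normal noise, with 1 spread per feature for all 4 groups and no slide or line effect. On them the OHT contrast recovered 67% of log2 changes of 1 and 90% of changes of 2 (5.99% of calls were unchanged genes). The test of the difference between OHT effects recovered 6% and 57%. The real arrays differ from that setting in slides, lines and spreads, so these rates need not hold for the real calls.

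Genes were named as the 10 largest called differences each way with separate ranges, those also called untreated, the 4 smallest p of each list, and all Jmjd2 genes. A further 8 called list members (T, Etv4, Hoxd4, Dusp4, Dusp6, Nkd1, Trib3 and Slc43a2) and the genes without a call that are named for their roles fall outside that rule and were chosen after their values were seen. The comparison and all lists were chosen with earlier results of these data known. Alternatives covered scaling, background correction, probe filters, each line left out, slide and line as blocks, the authors' table, and leaving out genes of chromosomes 3, X and Y. Own spreads by treatment and cyclic loess were added after seeing the data.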

Additional observations from a re-analysis of the deposited data

Results flagged for a closer look

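For 13 of the 92 called genes examined by name, OHT moved every 2ac line one way and every 2abc line the other. The same held for 787 of 22967 features (3.43%), but the 92 all had a call after OHT, so the 2 counts are not alike. Some of the changes were smaller than 0.105, the median difference between the 2 OHT arrays of cl4. Among these were Fn1 in cl5 (-0.014), Tdh in cl324.13 (-0.04) and L1td1 in cl324.9 (-0.07). The difference between the OHT effects, 2abc minus 2ac, was tested with limma and the line as a block, and none of the 13 passed (adjusted p 0.308 to 0.41). No explanation was tested for any of them.

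Dnmt3b changed by 0.43, 0.69 and 0.92 in cl4, cl5 and cl6 and changed by -0.43, -0.39 and -0.60 in cl280.4, cl324.9 and cl324.13, a difference between the effects of -1.15. Spink1 changed by 0.91, 0.66 and 1.78 against -0.52, -0.62 and -0.54 (difference -1.68). Myc changed by 1.50, 0.76 and 0.95 against -0.14, -0.28 and -0.89 (difference -1.51). Eno2 changed by -0.26, -0.35 and -1.12 against 0.59, 0.75 and 1.53 (difference 1.53). Vegfa changed by -0.71, -0.49 and -0.39 against 0.33, 0.28 and 0.43 (difference 0.88).

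For Fgg the difference between the effects was 2.59 and rested largely on cl6, where OHT changed it by -3.46, against -0.70 in cl4 and -0.80 in cl5. For Krt20 it was 2.48, with -0.05 in cl4, -2.68 in cl5 and -1.99 in cl6. For 1700029J07Rik the computed value was 2.44, but its probe was above background on 0 arrays outside OHT_2abc, so it measures no effect size and no direction in the 2ac lines. The remaining differences were -1.82 for Gnat1 (above background on 1 of 3 OHT_2abc arrays), -0.56 for Notum, -0.51 for L1td1, 0.42 for Fn1 and -0.30 for Tdh.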

How the results depend on the processing

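The count of 3139 calls after OHT was 984 without the filter on dim probes, 1807 with the slide as a block, 1329 on the slide of cl6 alone, 824 with own spreads for treated and untreated samples, and 0 from the 6 OHT samples alone (5305 at an unadjusted p under 0.05). Leaving out 1 line gave 59 to 8444. With the line as a random replicate block it was 3099. The untreated count of 5 was 0 with arrays scaled by their median, 0 without the filter, 3 with the first array of cl4 alone, 2 with the line as a random replicate block, 2 from the 6 untreated samples alone, 673 with own spreads, and 0 to 1104 with a line left out. The count against cl6 of 1329 was 2124 with normexp, 2182 in the authors' deposited table and 66 without the filter. The difference between the OHT effects gave 0 calls in every setting run, including without the line as a replicate block (2080 at an unadjusted p under 0.05, lowest adjusted p = 0.111). The cause of these changes was not tested. Of the named genes 1 changed sign, Tdh, at 0.0656 with arrays scaled by their median. The X chromosome median of -0.35 was -0.02 with that scaling. Normexp used the median spot signal, as the files used here hold no mean signal. The brightness bands were cut to equal size, so 9187 of the features lie in the 2 dimmest by design. Those held 340 higher and 789 lower calls after OHT, and the brighter bands 1141 and 869. Calls over 2-fold were not counted by band.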

Other observations

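Zscan4 genes mark the rare 2-cell-like state of ESC cultures and were looked at after their values were seen. Zscan4c was at 0.23, -0.90 and -0.33 in OHT_2abc and at -0.07, -0.04 and -1.90 in cl4, cl5 and cl6 after OHT, so cl6 was the lowest. Untreated, it was at 1.02, 1.22 and 1.90 in 2abc and at 1.73, 1.47 and 0.56 in cl4, cl5 and cl6. Each line thus had a lower Zscan4c value in its OHT culture than in its untreated one, with probes of this family open to shared signal between near-identical copies.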
